A study of Homo sapiens with 9 samples.

Results

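The transcripts described here are the well-expressed long intergenic noncoding RNAs (lincRNAs) of HCT116, an established human colon adenocarcinoma cell line. They are the 237 rows of a table of 63677 genes whose annotated class is lincRNA, which lie on a primary chromosome and whose mean over 9 libraries is at least 100 normalised counts. The table holds 7109 lincRNA rows on primary chromosomes in all. The 9 libraries were made from polyadenylated RNA of wild-type HCT116 cells 48 h after transfection with an siRNA, 3 each for a control siRNA (siControl), an siRNA against RNF40 (siRNF40) and an siRNA against transglutaminase 2 (siTG2). The members were thus chosen by their measured level, an average over all 3 groups, so a transcript can enter through a rise in a knockdown. The siControl mean was below 100 for 17 members, of which 9 were called higher in siRNF40 and 5 in siTG2. Members just inside the threshold were RP11-258C19.7 (100.6) and CTC-462L7.1 (100.7), and rows just outside were DNAJC3-AS1 and GMDS-AS1 (both 99.3).

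LincRNAs are transcribed by RNA polymerase II from their own promoters, are usually capped and often spliced and polyadenylated, and encode no known large protein. Some build nuclear bodies or hold proteins in the nucleus, some carry microRNAs or small nucleolar RNAs in their exons or introns, and for many the act of transcription or no function at all is known. Many are short-lived because the nuclear exosome degrades them. RNF40 is a subunit of the ubiquitin ligase that attaches 1 ubiquitin to histone H2B along transcribed genes, and transglutaminase 2, encoded by TGM2, is an enzyme that can attach serotonin to histone H3. The study's title asks what the latter modification does to transcription in colorectal cancer. The lincRNAs are compared between each knockdown and siControl and directly between the knockdowns.

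The reads assigned to genes numbered from 29161285 to 35743918 a library, so 1 read was worth 0.88 to 1.1 normalised counts. RNF40 stood at 18.7% of its siControl mean in siRNF40 and at 82.8% in siTG2 (adjusted p = 0.019). TGM2 stood at 18.5% in siTG2 and at 145% in siRNF40, which did not pass the test (adjusted p = 0.063). The colon epithelial marker genes summed in each library to values that ranged from 87274 to 95730 (siControl), from 129433 to 156195 (siRNF40) and from 77901 to 89021 (siTG2). Most of this sum came from the keratins KRT8, KRT18 and KRT19 (siControl means 36809, 10693 and 28837). CDX2 had a siControl mean of 337, and CDX1 and VIL1, in the same list, were nearly absent (0.344 each). Fibroblast markers summed to 822 to 997, 1371 to 1705 and 1016 to 1172, and leukocyte and red cell markers to 11.4 to 14.4, 7.47 to 15.3 and 26.4 to 58.4. Nearly all of the fibroblast sum was COL1A1 (means 889, 1463 and 1050 in the same order of groups), while DCN and LUM were at 0. The signal recognition particle RNA row RN7SL2, an abundant transcript of RNA polymerase III that carries no poly(A) tail, had 1023, 812 and 910.1 in siControl, 7842, 2759.9 and 2689 in siRNF40, and 819.6, 2317 and 1505 in siTG2. Its part in the results was not tested. The labels do not say whether the 3 libraries of a group came from separate cultures, so p-values measure the spread between these libraries only.

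The 237 members lay on 24 chromosomes and their means ran from 100.6 to 46768 with a median of 219. NEAT1, MALAT1 and LINC00657 together held 48.3% of all counts of the members. By the deposited hg19 coordinates 134 members overlapped no other annotated gene and 103 did, and reads in such stretches may belong to either gene. In GENCODE 29, 192 of the gene IDs still had an entry, 159 of them as lincRNA, 25 in other classes and 8 as protein-coding. The latter were AC093323.3, LINC00116 (now MTLN), LINC00086 (SMIM10L2A), C11orf95 (ZFTA), FAM83H-AS1 (IQANK1), TINCR, LINC00493 (SMIM26) and NCBP2-AS2. The median member spanned 5664 bases of genome. Exons and transcript sequences were available only for the 192 members with an entry, not for the other 45. Among the 192, the median member had an exonic length of 3086 bases and at most 3 exons in a transcript, and 38 had a single exon. For 18 of them over 20% of their 50-base words also occurred in another gene's transcripts, so that reads could not be placed uniquely there.

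In siRNF40, more of these lincRNAs rose than fell. Against siControl 81 of 237 were called higher (34.2%) and 37 lower (15.6%) by limma, at a Benjamini-Hochberg adjusted p under 0.05 over all 17663 genes tested. Over all genes tested 21.7% were called higher and 23.6% lower, 45.3% in either direction. The median log2 fold change of the members was 0.18 ± 0.026 (SD over the 3 siRNF40 libraries), beside 0.016 for all genes tested. Protein-coding genes with the same minimum level had 3074 higher and 3606 lower calls of 11386, with a median of -0.020. Antisense transcripts at that level had 71 higher and 36 lower calls of 210, with a median of 0.21. The 769 lincRNAs with means from 10 to 100 had 61 higher and 53 lower calls. When membership was taken from the siControl mean alone, which gave 237 lincRNAs as well, 72 were called higher and 44 lower and the median was 0.11. In 91 members all 3 siRNF40 libraries lay above all 3 siControl libraries and in 44 below, 57.0% of the members beside 53.2% of all genes tested. With the same minimum level as the members, 65.4% of protein-coding genes and 56.7% of antisense transcripts were separated in this way. Of the 237 members, 19 were called higher with a change of at least 2-fold and 5 lower. Of the 17663 genes tested, 636 (3.6%) and 892 (5.05%) were called with such a change. With the same minimum level as the members, these counts were 196 and 527 of 11386 protein-coding genes and 14 and 5 of 210 antisense transcripts. The rule of membership admits transcripts through a rise in a knockdown, so the count of rises is partly set by it. In RNA from whole cultures, fewer cells that make a transcript and less of it in each cell cannot be told apart.

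In siTG2, 24 of the lincRNAs were called higher (10.1%) and 39 lower (16.5%). These shares lie near those of all genes tested, 12.8% and 18.5%, or 31.3% in either direction. The median log2 fold change was -0.10 ± 0.028 (SD over the 3 siTG2 libraries), beside -0.0069 for all genes tested. With libraries scaled to equal totals the split was 36 higher and 27 lower and the median 0.038, a scaling that moved the median of all genes by 0.14, so that the members' median lay 0.097 under that of all genes with both scalings. With quantile normalisation 19 were higher and 54 lower, and the members' median minus that of all genes was -0.175. Protein-coding genes at the same level had 1650 higher and 3028 lower calls, with a median of -0.064, nearer to the members' median than that of all genes. Antisense transcripts at that level had 24 and 33 calls, with a median of -0.017. The 769 lincRNAs with means from 10 to 100 had 57 higher and 26 lower calls, with a median of 0.13. The siTG2 libraries lay wholly above siControl in 36 members and wholly below in 62, 41.4% of the members beside 46.5% of all genes. With the same minimum level as the members, these shares were 56.3% of protein-coding genes and 41.4% of antisense transcripts. A change of at least 2-fold was seen in 8 members called higher and 4 called lower, beside 3.49% and 1.43% of all genes tested.

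Set directly against each other, siRNF40 exceeded siTG2 in 95 members (40.1%) and was lower in 39 (16.5%). Each direction held 26.6% of all genes tested, 53.3% in all. At the same minimum level, protein-coding genes had 3940 higher and 3676 lower calls of 11386, with a median of 0.018. For antisense transcripts at that level these were 81 and 41 of 210, with a median of 0.26, near that of the members. The members' median difference was 0.26, beside -0.014 for all genes tested. With equal totals the split became 64 and 58, the median of the members 0.087 and that of all genes lower by 0.17. The authors' deposited table of comparisons listed 78 of the members as higher and 34 as lower in siRNF40, and 25 and 38 in siTG2. No call in it was opposite to those given here. Every member with a log2 fold change above 1 or below -1 against siControl had a mean under 1000. All members together held 0.593 ± 0.0037% of the counts in siControl, 0.700 ± 0.029% in siRNF40 and 0.643 ± 0.034% in siTG2 (SD, n = 3 each).

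**Figure D1:**
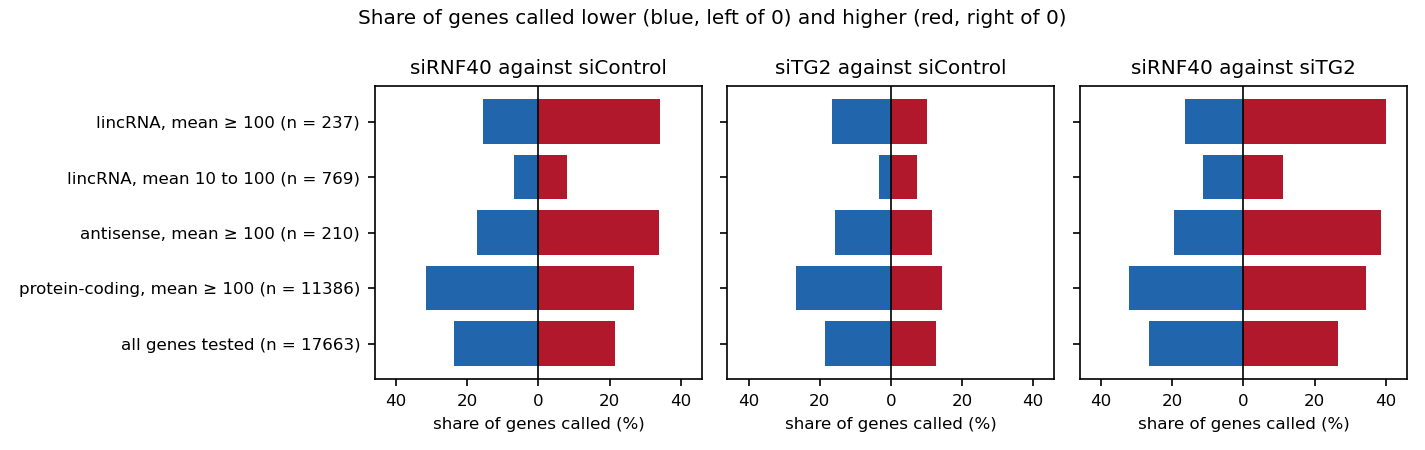
Share of genes called lower (blue, left of 0, %) and higher (red, right of 0, %) in each comparison, for the lincRNAs described here, for lincRNAs of lower level, antisense transcripts, protein-coding genes and all genes tested. In siRNF40 against siControl the lincRNAs had 34.2% higher and 15.6% lower calls, and in siTG2 against siControl 10.1% and 16.5%.

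**Figure D2:**
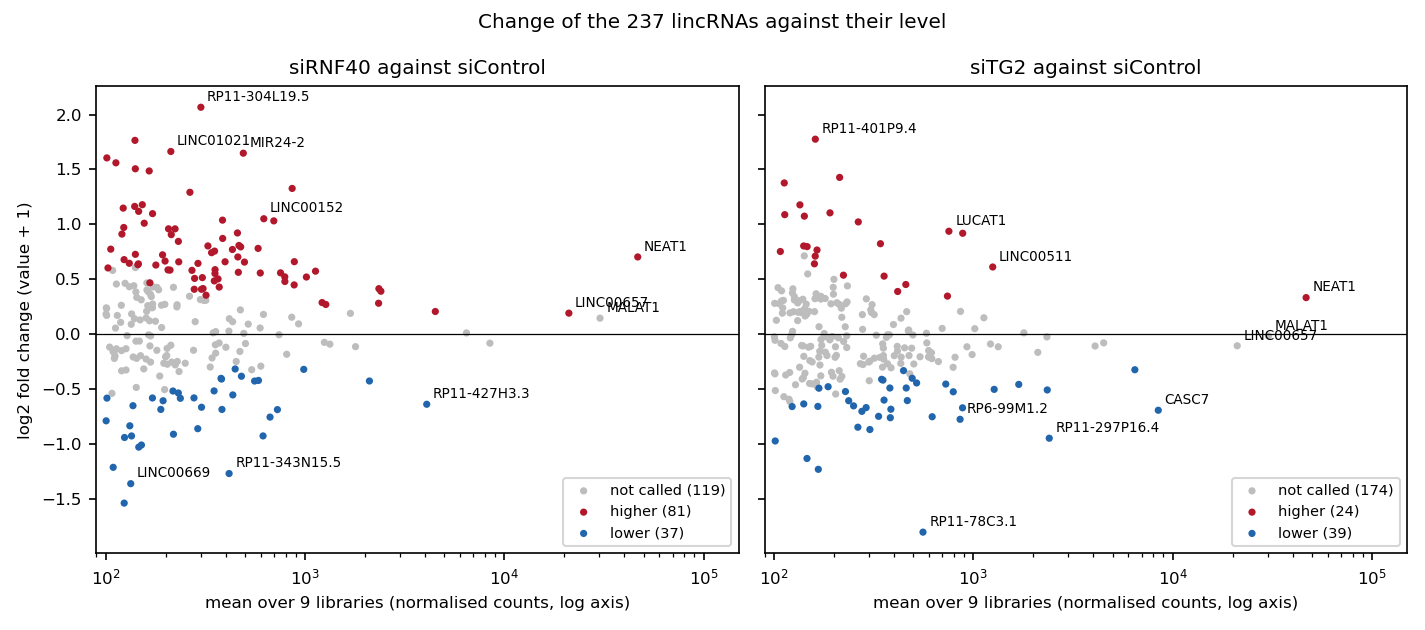
Log2 fold change of each of the 237 lincRNAs (vertical axis) against its mean over 9 libraries (horizontal axis, normalised counts, log scale) in each knockdown against siControl, coloured by the limma call. NEAT1 at the far right was called higher in both panels, and the changes of more than 1 log2 unit lie at means below 1000.

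Among the nuclear and architectural RNAs, 3 of 5 were called higher in siRNF40 and 1 in siTG2, and none was called lower. Over all 237 members, 34.2% were called higher and 15.6% lower in siRNF40, and 10.1% and 16.5% in siTG2. This list and those below are short and were chosen with earlier results known. NEAT1 is the scaffold of paraspeckles, nuclear bodies that gather RNA-binding proteins. It was the most abundant member, and its normalised counts were 36409, 36595 and 34967 in siControl, 65068, 52591 and 58714 in siRNF40, and 46725, 50149 and 39693 in siTG2. The 3 groups did not overlap, with siControl lowest and siRNF40 highest. Its mean was 1.63 times that of siControl in siRNF40 (log2 fold change 0.70, SE 0.082, adjusted p = 1.1e-06) and 1.26 times in siTG2 (log2 fold change 0.33, SE 0.082, adjusted p = 0.0043). With quantile normalisation the siRNF40 change was 0.43. The direct difference between siRNF40 and siTG2 was 0.37 (adjusted p = 0.00084), but -0.068 with quantile normalisation, and its adjusted p was 0.052 with equal totals. The NEAT1 row covers chromosome 11, bases 65190245 to 65213011 of hg19, on the plus strand, and the counts do not separate its short polyadenylated isoform from the long one that builds paraspeckles.

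MALAT1, the nuclear speckle RNA whose 3′ end is made by RNase P cleavage, had 30081, 30079 and 27729.9 in siControl, 34583, 29874 and 32842 in siRNF40, and 30218, 31048 and 25786 in siTG2. The siRNF40 and siTG2 libraries both overlapped siControl and neither change passed the test (0.15, adjusted p = 0.12 and -0.018, adjusted p = 0.89). Its neighbour NEAT1 on chromosome 11 thus changed in both knockdowns, while MALAT1 was called in neither comparison with siControl. That the changes of these transcripts differ was not tested. Per kilobase of exonic sequence, the siControl level was 3318 for MALAT1, 3860 for LINC00657 and 1581 for NEAT1, with NEAT1 divided by the length of its long isoform. The counts do not separate the isoforms, and a shorter length would give NEAT1 a higher value.

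LINC00657, known as NORAD, is a cytoplasmic RNA that binds Pumilio proteins. It had 20631, 19946 and 21244 in siControl, 24356, 24846 and 21480.2 in siRNF40, and 19993, 18192 and 19260.2 in siTG2. All siRNF40 libraries lay above siControl (log2 fold change 0.19, SE 0.064, adjusted p = 0.021), but the adjusted p ran from 0.0014 to 0.91 over the alternatives. It missed the threshold with equal totals (0.053), with no filter on low values (0.055), with quantile normalisation (0.91), without siControl replicate 1 (0.062), without siControl replicate 2 (0.088), without siRNF40 replicate 1 (0.073) and without siRNF40 replicate 2 (0.085). The siTG2 change did not pass (-0.11, adjusted p = 0.23). The longest GENCODE 29 transcript of NORAD, 5339 bases, held the Pumilio word TGTANATA 15 times on its own strand, 2.81 per kilobase. The next member by that measure had 0.934 per kilobase. Of the 5339 bases' 50-base words, 35.3% also occurred in other genes. The first such word of NORAD, in capitals with its flanks, shows the site type that the transcript repeats.
NORAD: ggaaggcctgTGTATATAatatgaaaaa

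RP11-453F18__B.1, known as FIRRE, is an X-linked RNA that binds chromatin at several chromosomes. It had 112, 88.3 and 125 in siControl, 160.1, 157 and 189 in siRNF40, and 122, 98.6 and 132 in siTG2, with siRNF40 above siControl in every library (log2 fold change 0.65, SE 0.20, adjusted p = 0.015). The call was lost, by the adjusted p in parentheses, without siControl replicate 2 (0.074) and without siRNF40 replicate 3 (0.059). In siTG2 it was 0.12, adjusted p = 0.69.

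Of 3 members linked to the tumour suppressor p53, whose gene is wild type in HCT116, 2 were called higher in siRNF40 and 1, NEAT1, in siTG2. Over all members these shares were 34.2% and 10.1%. LINC01021, known as PURPL, is a p53-induced RNA that in turn restrains p53. It lies on chromosome 5, bases 27472399 to 27496508 (hg19, plus strand) and had 115, 94.9 and 146 in siControl, 397, 419.9 and 308 in siRNF40, and 181, 106 and 147 in siTG2. The siRNF40 libraries were above all others, 3.17 times the siControl mean (log2 fold change 1.66, SE 0.21, adjusted p = 3.4e-06). The siTG2 libraries overlapped siControl (0.27, adjusted p = 0.37), and siRNF40 exceeded siTG2 by 1.39 (adjusted p = 1.8e-05). A full p53 site, a pair of adjoining half-sites of 10 bases with at most 1 base between them, was searched for in the RefSeq promoters (GRCh38.p14, 250 bases before to 50 after each start). It occurred in 7 of 35116 promoters (0.0199%), and the PURPL promoter was the only 1 of the 103 available for members. Half-sites alone occurred in 6.63% of all promoters and in 4 of the 103. The promoter is shown with the site of 20 bases in capitals. It begins 127 bases before the start, at chr5:27472042-27472341 on the plus strand for the whole window.
PURPL promoter: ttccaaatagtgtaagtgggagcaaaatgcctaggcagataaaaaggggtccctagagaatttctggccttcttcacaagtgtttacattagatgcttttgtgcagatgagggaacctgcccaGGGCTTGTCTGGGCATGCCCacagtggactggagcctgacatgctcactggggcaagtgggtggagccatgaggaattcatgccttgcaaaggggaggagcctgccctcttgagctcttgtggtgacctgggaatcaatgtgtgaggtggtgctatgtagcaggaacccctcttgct

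The third p53-linked member is a row labelled MIR29A in the table, to whose ID GENCODE 29 gives the name LINC-PINT, a p53-induced RNA. It had 257, 200.2 and 269.6 in siControl, 186, 186 and 224 in siRNF40, and 217, 265 and 210.1 in siTG2, overlapped between groups and was not called (-0.28, adjusted p = 0.18 in siRNF40 and -0.068, adjusted p = 0.80 in siTG2). GENCODE 29 gives the same name to another row of the table, classed as antisense and therefore no member. That row had 237, 211 and 221 in siControl, 421, 386 and 342 in siRNF40, and 213, 236 and 219 in siTG2, and rose in siRNF40 (log2 fold change 0.77, SE 0.14, adjusted p = 0.00016) but was not called in siTG2 (-0.0029, adjusted p = 0.99). The parts of the locus counted separately thus had different calls.

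Of 7 cancer-associated lincRNAs, 4 were called higher in siRNF40 and none lower, and in siTG2 3 were called higher and 1 lower. Over all members, 34.2% were called higher and 15.6% lower in siRNF40, and 10.1% and 16.5% in siTG2. CCAT1, transcribed upstream of MYC and abundant in colon cancer, had 92.8, 118 and 117 in siControl, 258, 267 and 218 in siRNF40, and 105, 78.3 and 123 in siTG2. Only siRNF40 stood apart, at 2.27 times siControl (log2 fold change 1.18, SE 0.21, adjusted p = 0.00011), and siTG2 overlapped siControl (-0.11, adjusted p = 0.72). CRNDE, raised in colorectal tumours, had 289, 212 and 232 in siControl, 438, 341 and 320.2 in siRNF40, and 159, 223 and 229 in siTG2. It was higher in siRNF40 (log2 fold change 0.58, SE 0.18, adjusted p = 0.012), a call lost without siControl replicate 2 (0.057) and without siRNF40 replicate 1 (0.072).

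LINC00152, known as CYTOR, and MIR4435-1HG share part of their sequence. Both lie on chromosome 2, at bases 87754887 to 87906324 (plus strand) and bases 111953927 to 112252677 (minus strand) of hg19. Of their 50-base words 24.1% and 21.7% occurred in other genes, each mainly in the other, so their counts are uncertain. LINC00152 had 451, 521 and 529.9 in siControl, 1361, 1071 and 761 in siRNF40, and 232, 378 and 295 in siTG2. MIR4435-1HG had 859, 877 and 908 in siControl, 1486, 1085 and 1078 in siRNF40, and 521, 585 and 554 in siTG2. For both transcripts siRNF40 was highest and siTG2 lowest with no overlap. LINC00152 rose in siRNF40 (log2 fold change 1.05, SE 0.18, adjusted p = 9.6e-05) and fell in siTG2 (log2 fold change -0.75, SE 0.18, adjusted p = 0.0035), and so did MIR4435-1HG (0.45, adjusted p = 0.0032 and -0.67, adjusted p = 0.00016). In siRNF40 replicate 1, the library with the highest RN7SL2 value, both were at their highest. Without that library the log2 fold changes were 0.85 and 0.30, still called. Their RefSeq promoters, at chr2:87455177-87455476 on the plus strand and chr2:111495112-111495411 on the minus strand of GRCh38.p14, shared a run of 241 bases. They are shown with the AP-1 word TGACTCA, on either strand, in capitals. That word occurred in 4.95% of all promoters and in 8 of the 103 of members.
CYTOR promoter: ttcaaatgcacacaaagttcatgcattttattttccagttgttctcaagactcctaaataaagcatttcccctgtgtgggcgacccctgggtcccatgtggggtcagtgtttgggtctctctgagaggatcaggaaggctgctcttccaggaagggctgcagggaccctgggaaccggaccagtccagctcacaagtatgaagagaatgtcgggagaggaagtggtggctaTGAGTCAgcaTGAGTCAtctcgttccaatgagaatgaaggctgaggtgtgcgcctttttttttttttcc
MIR4435-2HG promoter: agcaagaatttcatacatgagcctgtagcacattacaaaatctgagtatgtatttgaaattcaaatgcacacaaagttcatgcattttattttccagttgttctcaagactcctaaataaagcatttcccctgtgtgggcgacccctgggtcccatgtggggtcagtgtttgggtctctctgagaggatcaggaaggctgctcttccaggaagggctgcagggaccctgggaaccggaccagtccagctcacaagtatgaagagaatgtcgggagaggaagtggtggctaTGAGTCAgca

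LUCAT1, a stress-induced RNA first described in lung cancer, rose in both knockdowns. It had 532, 489.7 and 524 in siControl, 833, 757 and 692 in siRNF40, and 1022, 902 and 1042 in siTG2. The 3 groups did not overlap and siTG2 was highest (log2 fold change 0.56, SE 0.10, adjusted p = 0.00017 in siRNF40, log2 fold change 0.94, SE 0.10, adjusted p = 1.1e-06 in siTG2). The knockdowns share the siControl libraries. LINC00511 had 1049, 1031 and 1161 in siControl, 945, 1102 and 1030.0 in siRNF40, and 1638, 1769 and 1546 in siTG2 and rose in siTG2 alone by the calls (-0.075, adjusted p = 0.52 in siRNF40, 0.61, adjusted p = 3.2e-05 in siTG2), with a direct difference of -0.69 (adjusted p = 2.6e-06). TINCR, a regulator of epidermal differentiation, had 158, 113 and 131 in siControl, 141, 114 and 144 in siRNF40, and 220.5, 219 and 240.4 in siTG2. It too was called higher in siTG2 (0.77, adjusted p = 0.0035) and not in siRNF40 (-0.0068, adjusted p = 0.98), with a direct difference of -0.77 (adjusted p = 0.0015). LINC00460 had 154, 215 and 154 in siControl, 153, 212 and 201 in siRNF40, and 136, 192 and 186 in siTG2, overlapped throughout and was called in no comparison.

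**Figure D3:**
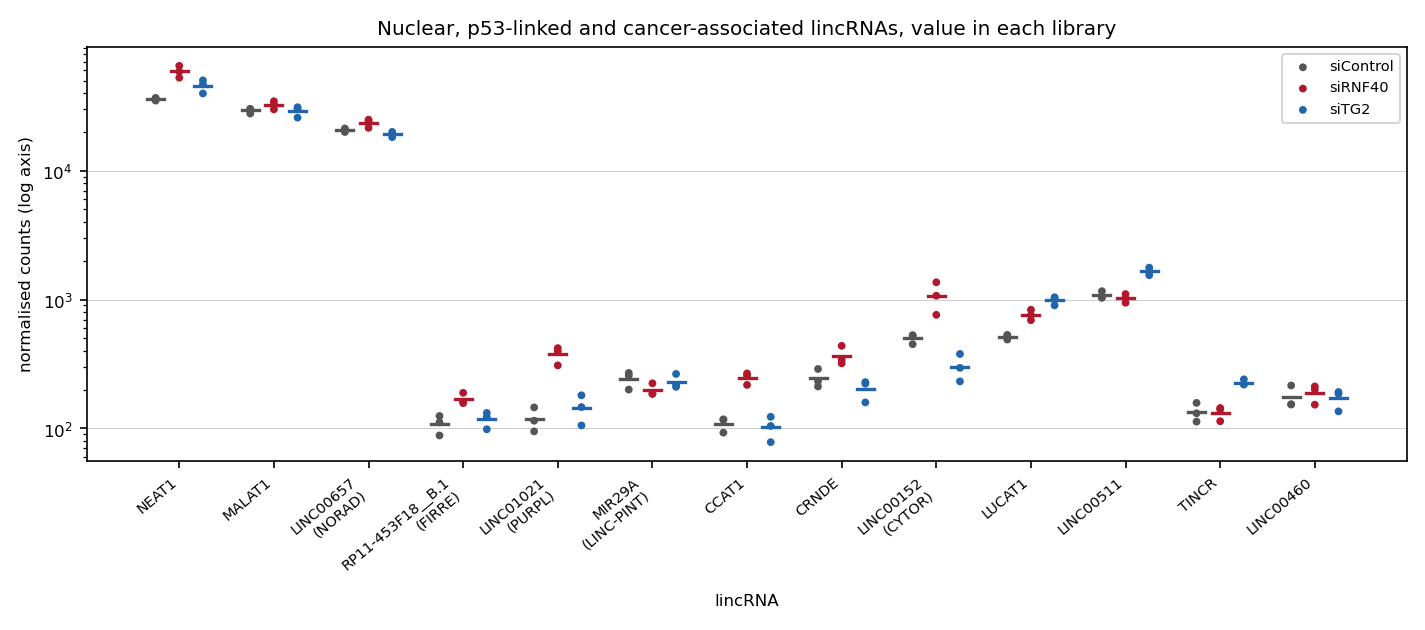
Normalised counts (vertical axis, log scale) of 13 nuclear, p53-linked and cancer-associated lincRNAs (horizontal axis) in each library of siControl (grey), siRNF40 (red) and siTG2 (blue), with points for libraries and bars for group means. LINC01021 and CCAT1 stand apart in siRNF40, LINC00511 and TINCR in siTG2, and MALAT1 and LINC00460 overlap in all groups.

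Hosts of microRNAs are cut by the microprocessor, DROSHA with DGCR8, to release hairpins. Of 6 hosts by name, 2 were called higher and 1 lower in siRNF40, and 2 lower in siTG2. Over all members these shares were 34.2%, 15.6% and 16.5%, so the counts of hosts in siRNF40 lie near those of all members. The libraries hold polyadenylated RNA, and mature microRNAs were not measured. MicroRNAs of MIR24-2, RP6-99M1.2 and MIR4435-1HG, hosts called in a comparison with siControl, are shown to identify what they carry, from RefSeq, with the seed (bases 2 to 8) in capitals. The first 3 belong to the row labelled MIR24-2 and the next pair, which share the seed GCUACAU, to RP6-99M1.2. The last belongs to MIR4435-1HG and LINC00152, which share part of their sequence. In the deposited coordinates the hairpin MIR4435-2 lies inside the row of MIR4435-1HG, but the hairpin MIR4435-1 lies 22949 bases outside that of LINC00152.
miR-23a-3p: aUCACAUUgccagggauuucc
miR-27a-3p: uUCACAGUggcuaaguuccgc
miR-24-3p: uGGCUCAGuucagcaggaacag
miR-221-3p: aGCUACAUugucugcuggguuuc
miR-222-3p: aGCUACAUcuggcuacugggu
miR-4435: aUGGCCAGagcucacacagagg

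The row labelled MIR24-2, now MIR23AHG, covers chromosome 19, bases 13945330 to 13947173 (hg19, minus strand), and the hairpins of miR-27a and miR-23a lie 80 and 227 bases beyond its end in the deposited coordinates. It had 263, 293 and 316 in siControl, 892, 856 and 988 in siRNF40, and 210.1, 336 and 264 in siTG2. All siRNF40 libraries lay at more than 2.5 times any siControl library, and the siTG2 libraries spanned the siControl ones. The change in siRNF40 was 3.14-fold (log2 fold change 1.65, SE 0.15, adjusted p = 4.5e-08) and in siTG2 -0.13, adjusted p = 0.56. RP6-99M1.2, the host MIR222HG of miR-221 and miR-222, had 953, 998 and 914 in siControl, 1139, 1041 and 1011 in siRNF40, and 548, 521 and 605 in siTG2. It fell in siTG2 with no overlap (log2 fold change -0.78, SE 0.095, adjusted p = 4.3e-06) and was not called in siRNF40 (0.15, adjusted p = 0.20), although all 3 libraries there lay above siControl. The direct differences were 1.78 (adjusted p = 9.6e-09) for the first and 0.93 (adjusted p = 1.2e-07) for the second.

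LINC00669, the host MIR924HG, was the only microRNA host called lower in siRNF40. It had 189.9, 101 and 174 in siControl, 61.2, 36.1 and 85.4 in siRNF40, and 211, 157 and 189.6 in siTG2, with siRNF40 below all others (log2 fold change -1.36, SE 0.29, adjusted p = 0.00072) and siTG2 overlapping siControl (0.30, adjusted p = 0.46). MIR22HG had 409, 498 and 432 in siControl, 559.9, 451 and 551 in siRNF40, and 483, 464 and 424 in siTG2 and was called in no comparison. MIR4453 (MIR4453HG) had 160.1, 201 and 127 in siControl, 197, 213 and 219.9 in siRNF40, and 134, 118 and 104 in siTG2 and was called only between the knockdowns (0.83, adjusted p = 0.0014). FTX, an X-linked RNA that hosts miR-421 and miR-374 in introns, had 155, 93.0 and 166 in siControl, 133, 136 and 150.5 in siRNF40, and 352, 211 and 324 in siTG2. It rose in siTG2 (log2 fold change 1.10, SE 0.23, adjusted p = 0.00096) and not in siRNF40 (0.060, adjusted p = 0.85). Its row overlaps 20 other rows, so its counts are uncertain. Of 13 genes for RNase P subunits, ELAC2 and the microprocessor, 3 rose and 5 fell in siRNF40, beside 27.0% and 31.7% of protein-coding genes at a mean of at least 100. None rose and 3 fell in siTG2, and none was called there with equal totals. DROSHA and DGCR8 fell in both (-0.28, adjusted p = 0.0024 and -0.47, adjusted p = 0.00012 in siRNF40, -0.32, adjusted p = 0.0014 and -0.31, adjusted p = 0.0075 in siTG2).

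Small nucleolar RNA hosts carry, in introns, RNAs that guide the modification of ribosomal RNA. Of the 4 members of this kind, 3 were called higher in siRNF40, or 4 with quantile normalisation or with DESeq2. In siTG2 3 were called lower, or 2 with equal totals or with edgeR. All 4 were higher in siRNF40 than in siTG2. Over all members 34.2% were called higher in siRNF40, 16.5% lower in siTG2 and 40.1% higher in siRNF40 than in siTG2. SNHG8 had 2299, 2306 and 2345 in siControl, 3189, 3250.1 and 2837 in siRNF40, and 1350.1, 1929 and 1657 in siTG2, with 3 separate groups (log2 fold change 0.41, SE 0.099, adjusted p = 0.0021 in siRNF40, log2 fold change -0.51, SE 0.099, adjusted p = 0.00063 in siTG2). SNHG15 had 1689.6, 1756 and 1861 in siControl, 1859, 2014 and 2185 in siRNF40, and 1261, 1357 and 1244 in siTG2. It fell in siTG2 (-0.46, adjusted p = 0.00024), and its siRNF40 change did not pass in the main fit (0.19, adjusted p = 0.064). Without siRNF40 replicate 1 that change was 0.25 (adjusted p = 0.031). RP11-1094M14.11, now SNHG30, had 120.4, 106 and 82.6 in siControl, 197, 203 and 203 in siRNF40, and 43.3, 73.9 and 82.1 in siTG2 and rose in siRNF40 (0.97, adjusted p = 0.0030). Its fall in siTG2 (-0.66, adjusted p = 0.046) was lost with the 6 libraries of the comparison alone (0.071), with edgeR (0.063), with equal totals (0.11), with no filter on low values (0.077), with the replicate number as a block (0.060), without siControl replicate 1 (0.17), without siControl replicate 2 (0.11), without siRNF40 replicate 1 (0.055), without siRNF40 replicate 2 (0.059) and without siTG2 replicate 1 (0.25), with the adjusted p in parentheses. Without siTG2 replicate 1 the log2 fold change itself was -0.38. RP11-304L19.5, now SNHG19, had 107, 183 and 140.5 in siControl, 1053, 503 and 389 in siRNF40, and 102, 160.1 and 69.4 in siTG2. It had the largest log2 fold change of the members in siRNF40 (log2 fold change 2.07, SE 0.31, adjusted p = 2.4e-05). Replicate 1 was more than 2 times the others, in the library in which RN7SL2 was also highest, and without it the log2 fold change was 1.65 (adjusted p = 0.00019), below 1.75 for RP11-158H5.7, 1.70 for SLC2A1-AS1 and 1.66 for MIR24-2. Its row spans 562 bases and contains that of SNORD60.

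**Figure D4:**
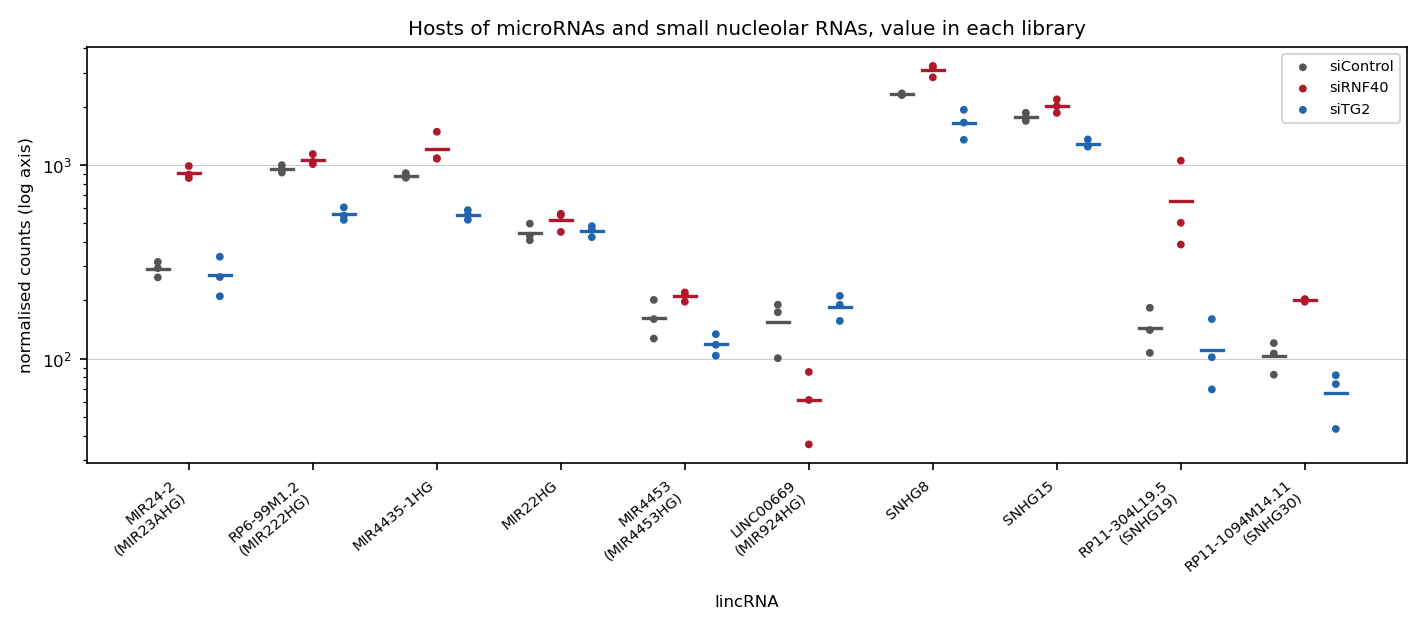
Normalised counts (vertical axis, log scale) of 6 microRNA hosts and 4 small nucleolar RNA hosts (horizontal axis) in each library of siControl (grey), siRNF40 (red) and siTG2 (blue), with points for libraries and bars for group means. MIR24-2 is high in siRNF40 only, RP6-99M1.2 is low in siTG2 only, and in all 4 small nucleolar RNA hosts the siRNF40 mean is above the siTG2 mean.

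The other members with the largest rises in siRNF40 were RP11-158H5.7, RP11-211G23.2, SLC2A1-AS1, RP11-430C7.5 and Z83851.1. The siControl means of the first 4 were 81.1, 68.3, 53.2 and 75.6, under the minimum of 100, so these entered only through groups in which they were higher, and their place among the largest rises is partly set by the rule. RP11-158H5.7, whose row overlaps ZSCAN30 on the same strand, had 82.8, 76.9 and 83.7 in siControl, 282, 264 and 288 in siRNF40, and 65.0, 48.4 and 73.3 in siTG2. It was 3.43 times siControl in siRNF40 (log2 fold change 1.76, SE 0.21, adjusted p = 1.3e-06), while siTG2, below siControl in all libraries, was not called (-0.40, adjusted p = 0.16). Z83851.1, now LINC01315, had 93.9, 111 and 124 in siControl, 310.0, 277 and 336 in siRNF40, and 73.5, 62.5 and 102 in siTG2 (1.49, adjusted p = 1e-05 in siRNF40). Its siTG2 libraries did not all lie under those of siControl, and the change was not called (-0.48, adjusted p = 0.087). RP11-430C7.5, inside LRRN2 on the other strand, had 60.7, 96.8 and 69.2 in siControl, 192, 203 and 247 in siRNF40, and 107, 182 and 112 in siTG2 (1.51, adjusted p = 3.7e-05 in siRNF40, 0.80, adjusted p = 0.014 in siTG2). The siTG2 call was lost with quantile normalisation (0.067), without siControl replicate 1 (0.070) and without siTG2 replicate 2 (0.099).

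The largest falls in siRNF40, beside LINC00669, were in AC015849.16, RP11-343N15.5, CTD-2292M16.8, KB-1732A1.1, AC079922.3, RP11-262H14.1 and AC159540.1. RP11-343N15.5 (chromosome 1, bases 121133256 to 121134581 of hg19) had 526, 547 and 546 in siControl, 226, 191 and 256 in siRNF40, and 441, 490.1 and 527 in siTG2. It fell to 0.416 of siControl (log2 fold change -1.27, SE 0.13, adjusted p = 2.3e-07), and siTG2 was not called (-0.15, adjusted p = 0.40). AC015849.16 had 215, 122 and 138 in siControl, 83.6, 49.9 and 34.2 in siRNF40, and 179, 149 and 145 in siTG2 (-1.54, adjusted p = 0.00021). CTD-2292M16.8, whose row overlaps TTC5 on the same strand, had 82.8, 167 and 116 in siControl, 36.7, 52.7 and 64.0 in siRNF40, and 140.4, 174 and 149.5 in siTG2 (-1.21, adjusted p = 0.0011). In these 3 members the siRNF40 libraries lay under every siControl and siTG2 library. RP11-262H14.1, now LINC01410, shared 34.5% of its 50-base words with other genes and AC159540.1, now APPAT, 56.2%, so both are uncertain.

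In siTG2 the largest rises were in RP11-401P9.4, RP11-161M6.2, SLC2A1-AS1, AC159540.1, FTX, RP11-844P9.2, LINC00202-1 and RP11-61A14.2. With siControl means of 82.9, 53.2 and 84.4, RP11-401P9.4, SLC2A1-AS1 and RP11-844P9.2 are members only through higher values in a knockdown, which the rule selects for. RP11-401P9.4 (chromosome 16, bases 50679720 to 50683160 of hg19, plus strand) had 79.5, 95.9 and 73.3 in siControl, 85.7, 125 and 122 in siRNF40, and 221, 364 and 285 in siTG2. Its siTG2 mean was 3.50 times that of siControl (log2 fold change 1.78, SE 0.22, adjusted p = 5.5e-06), and siRNF40 was not called (0.40, adjusted p = 0.15). LINC00202-1 had 105, 111 and 96.1 in siControl, 72.4, 124 and 109 in siRNF40, and 246, 197 and 219 in siTG2 (1.07, adjusted p = 0.00075). RP11-844P9.2 had 107, 64.5 and 81.6 in siControl, 49.0, 98.0 and 88.6 in siRNF40, and 188, 172 and 171 in siTG2 (1.09, adjusted p = 0.0037). The siRNF40 libraries of both overlapped siControl.

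The deepest fall in siTG2 was in RP11-78C3.1, an uncharacterised RNA on chromosome 5, bases 82215195 to 82216938 (hg19, minus strand) that overlaps no other gene. It had 732, 842 and 909 in siControl, 551, 636 and 656 in siRNF40, and 271, 215 and 224 in siTG2. The siTG2 libraries were at less than 0.4 times any siControl library, 0.286 of the siControl mean (log2 fold change -1.80, SE 0.13, adjusted p = 3.3e-09). The siRNF40 libraries also lay below siControl (-0.43, adjusted p = 0.0094), a call lost without siControl replicate 3 (0.059) and without siRNF40 replicate 1 (0.051). RP11-297P16.4, an abundant member, had 2686, 2449.5 and 2516 in siControl, 3624, 3124 and 3294 in siRNF40, and 1346, 1336 and 1279 in siTG2. It rose in siRNF40 (0.39, adjusted p = 0.00027) and fell in siTG2 (-0.95, adjusted p = 1.6e-08). Its libraries of 1 group lay close together and the 3 groups were separate, with a direct difference of 1.34 (adjusted p = 3.7e-11). RP11-18H21.1, now LINC02273, had 202, 262 and 174 in siControl, 183, 196 and 205 in siRNF40, and 115, 52.8 and 114 in siTG2 (-1.23, adjusted p = 0.00097 in siTG2). RP11-111M22.3, now EMSY-DT, had 251, 336 and 256 in siControl, 399, 317 and 350.1 in siRNF40, and 159, 171 and 135 in siTG2 (-0.85, adjusted p = 0.00052 in siTG2). Neither was called in siRNF40.

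The other members of highest level were CASC7, RP11-159D12.2, RP11-220I1.1, RP11-427H3.3 and FAM83H-AS1. CASC7 had 9784, 9542 and 10443 in siControl, 9299.7, 9856 and 8958 in siRNF40, and 6448, 5749 and 6213 in siTG2. It was lower in siTG2 than in any other library (log2 fold change -0.69, SE 0.064, adjusted p = 1.4e-07) and was not called in siRNF40 (-0.083, adjusted p = 0.32). RP11-427H3.3, whose row overlaps AAK1 on the same strand, had 4896, 4560.2 and 4855 in siControl, 3175, 3051 and 2961 in siRNF40, and 4578, 4161 and 4539.9 in siTG2. It fell in siRNF40 (log2 fold change -0.64, SE 0.065, adjusted p = 2.2e-07) and was not called in siTG2 (-0.11, adjusted p = 0.23). RP11-159D12.2 fell in siTG2 (-0.32, adjusted p = 0.0087), a call lost with equal totals (0.13), with quantile normalisation (0.21) and without siControl replicate 2 (0.052). FAM83H-AS1 rose in siRNF40 (0.28, adjusted p = 0.0049). RP11-220I1.1 was called higher in siRNF40 (0.21, adjusted p = 0.038), a call lost with equal totals (0.080), with no filter on low values (0.079), without siControl replicate 1 (0.051), without siControl replicate 2 (0.14), without siControl replicate 3 (0.082), without siRNF40 replicate 1 (0.16), without siRNF40 replicate 2 (0.10) and without siTG2 replicate 3 (0.051).

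Of the members, 9 were called higher in both knockdowns and 8 lower in both, 14 were higher in siRNF40 and lower in siTG2, and 2 lower in siRNF40 and higher in siTG2. Of all genes tested, 3.57%, 6.52%, 5.15% and 2.71% were in these 4 classes, beside 3.80%, 3.38%, 5.91% and 0.844% of the members. Protein-coding genes with the same minimum level had larger shares in all 4 classes, 4.32%, 9.72%, 7.52% and 3.70%. Both comparisons use the same 3 siControl libraries, so these calls are not independent, and 89 members were called in neither. RP11-61A14.2, whose row overlaps PDP2 on the same strand, had 130.3, 128 and 179 in siControl, 341, 376 and 346 in siRNF40, and 340.1, 276 and 269 in siTG2. Both knockdowns lay above siControl (1.29, adjusted p = 2.8e-06 in siRNF40, 1.02, adjusted p = 8.5e-05 in siTG2). LINC01963 had 546, 552 and 452 in siControl, 235, 325 and 428 in siRNF40, and 263, 352 and 301 in siTG2, below siControl in both (-0.69, adjusted p = 0.0038 and -0.76, adjusted p = 0.0028). AC009299.3, now LINC01806, had 404, 415 and 433 in siControl, 264, 273 and 251 in siRNF40, and 238, 195 and 254 in siTG2, again below siControl in both (-0.67, adjusted p = 0.00059 and -0.87, adjusted p = 8.5e-05).

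The widest differences between the knockdowns among members called in opposite directions were in RP11-211G23.2, RP11-41O4.2, AC159540.1, KB-1732A1.1 and LINC00152. RP11-211G23.2 had 56.3, 96.8 and 51.7 in siControl, 219, 179 and 208 in siRNF40, and 27.3, 47.5 and 27.4 in siTG2. Its direct difference was 2.58 (adjusted p = 4.5e-07), and its fall in siTG2 (-0.97, adjusted p = 0.015) was lost without siControl replicate 2 (0.10), without siTG2 replicate 1 (0.057) and without siTG2 replicate 3 (0.061). RP11-41O4.2, now LINC01910, had 130.3, 88.3 and 149 in siControl, 230.5, 277 and 278 in siRNF40, and 65.9, 38.7 and 61.6 in siTG2, a direct difference of 2.25 (adjusted p = 2.6e-07). KB-1732A1.1, now GASAL1, moved the other way, with 136, 119 and 152 in siControl, 69.3, 40.7 and 99.3 in siRNF40, and 233, 249.9 and 223 in siTG2. It differed by -1.83 between the knockdowns (adjusted p = 6e-06), with a rise in siTG2 (0.80, adjusted p = 0.022) that was lost with quantile normalisation (0.067), without siControl replicate 1 (0.055), without siControl replicate 2 (0.082), without siTG2 replicate 1 (0.053) and without siTG2 replicate 2 (0.065). AC159540.1 had 93.9, 113 and 112 in siControl, 35.7, 73.1 and 64.0 in siRNF40, and 221, 271 and 232 in siTG2 and a direct difference of -2.10 (adjusted p = 7.2e-07).

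Many lincRNAs start beside a protein-coding gene on the opposite strand, from a shared promoter region. A total of 48 members had such a divergent neighbour among the genes tested, with starts at most 2000 bases apart, and in 8 of these pairs the rows overlapped. In siRNF40, 25 of these 48 lincRNAs were called higher and 5 lower, and of their neighbours 14 were higher and 18 lower. Among protein-coding genes at a mean of at least 100, 27.0% were called higher and 31.7% lower there. The 189 members without such a neighbour had 56 higher and 32 lower calls. In 21 pairs both were called, 9 of them both higher, 3 both lower and 9 with the lincRNA higher and the neighbour lower. No pair had a lower lincRNA and a higher neighbour, but only 5 lincRNAs were lower. How many pairs of each kind unrelated genes with these shares of calls would give was not tested. Across the 48 pairs Spearman's rho was 0.137 in siRNF40 and 0.385 in siTG2, values from the same libraries that are given as a description. With starts at most 1000 or 5000 bases apart, 45 and 52 pairs had 23 and 25 higher and 5 and 6 lower lincRNAs in siRNF40. In siTG2 3 of the 48 lincRNAs were called higher and 6 lower, and 2 and 15 of the neighbours, which became 11 and 12 with equal totals. In the main fit 14.5% and 26.6% of protein-coding genes at a mean of at least 100 were called higher and lower in siTG2.

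RP11-161M6.2, known as CEROX1, a regulator of respiratory chain transcripts, starts 212 bases from SOX8, a transcription factor gene. CEROX1 had 159, 96.8 and 96.1 in siControl, 212, 199 and 234 in siRNF40, and 282, 321 and 324 in siTG2. SOX8 had 128, 151 and 87.8, 321, 320.0 and 334, and 261, 277 and 308 in the same order. Both rose in both knockdowns with no overlap with siControl (CEROX1 0.91, adjusted p = 0.00068 and 1.43, adjusted p = 1.3e-05, SOX8 1.44, adjusted p = 2.7e-06 and 1.23, adjusted p = 3.5e-05). CEROX1 lies in a row that overlaps LMF1.

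SLC2A1-AS1 starts 190 bases from SLC2A1, the gene for the glucose transporter GLUT1. The lincRNA had 64.1, 30.4 and 65.1 in siControl, 124, 185 and 147 in siRNF40, and 148, 132 and 118 in siTG2. SLC2A1 had 9548, 9448 and 9459, 7361, 8091 and 8831, and 14575, 15342 and 14876. The lincRNA rose in both knockdowns (1.56, adjusted p = 0.00012 in siRNF40 and 1.38, adjusted p = 0.00075 in siTG2). SLC2A1 fell in siRNF40 (-0.23, adjusted p = 0.0064) and rose in siTG2 (0.65, adjusted p = 3.3e-07). BAIAP2-AS1 and BAIAP2, which encodes an actin regulator, rose together in siRNF40 and moved in opposite directions in siTG2. The lincRNA had 644, 548 and 589 in siControl, 973, 842 and 1001 in siRNF40, and 1093, 1257 and 1023 in siTG2 (0.66, adjusted p = 4.1e-05 and 0.92, adjusted p = 2e-06). BAIAP2 had 1829.9, 1816 and 1856, 3072, 3168 and 3790.1, and 1588, 1611 and 1455 (0.86, adjusted p = 9.2e-08 in siRNF40 and -0.24, adjusted p = 0.030 in siTG2).

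Pairs that fell together in siRNF40 were RP11-1094H24.4 with ITGA3, an integrin gene, TRAM2-AS1 with TRAM2, and AC079922.3 with SLC20A1, a phosphate transporter gene. RP11-1094H24.4, known as PICART1, had 319, 287 and 314 in siControl, 208, 199.8 and 204 in siRNF40, and 219.5, 183 and 201 in siTG2, lower in both knockdowns (-0.58, adjusted p = 0.0027 and -0.61, adjusted p = 0.0033). ITGA3 had 47046, 48160.5 and 44656, 31416, 28168 and 32249, and 25289.5, 25605 and 25523 (-0.61, adjusted p = 1.8e-07 and -0.87, adjusted p = 3.6e-09). This pair had no overlap between siControl and either knockdown. TRAM2-AS1 had 382, 416 and 389 in siControl, 206, 301 and 165 in siRNF40, and 291, 256 and 205 in siTG2 (-0.86, adjusted p = 0.00090 in siRNF40 and -0.67, adjusted p = 0.010 in siTG2). Its siTG2 call was lost without siTG2 replicate 3 (0.065). TRAM2 fell in siRNF40 (-0.71, adjusted p = 1.9e-07) but was not called in siTG2 (0.077, adjusted p = 0.45). AC079922.3 had 211, 162 and 209.7 in siControl, 102, 107 and 79.0 in siRNF40, and 146, 183 and 162 in siTG2 (-1.01, adjusted p = 0.00031 in siRNF40), and SLC20A1 fell as well (-0.62, adjusted p = 2.9e-08). SLC20A1 fell in siTG2 too (-0.34, adjusted p = 9.9e-05), where AC079922.3 was not called (-0.24). By contrast, TRAF7, 340 bases from RP11-304L19.5, fell in siRNF40 (-0.63, adjusted p = 1.3e-06) where that lincRNA rose. TRAF7 also fell in siTG2 (-0.75, adjusted p = 2.9e-07), where RP11-304L19.5 was not called (-0.42).

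**Figure D5:**
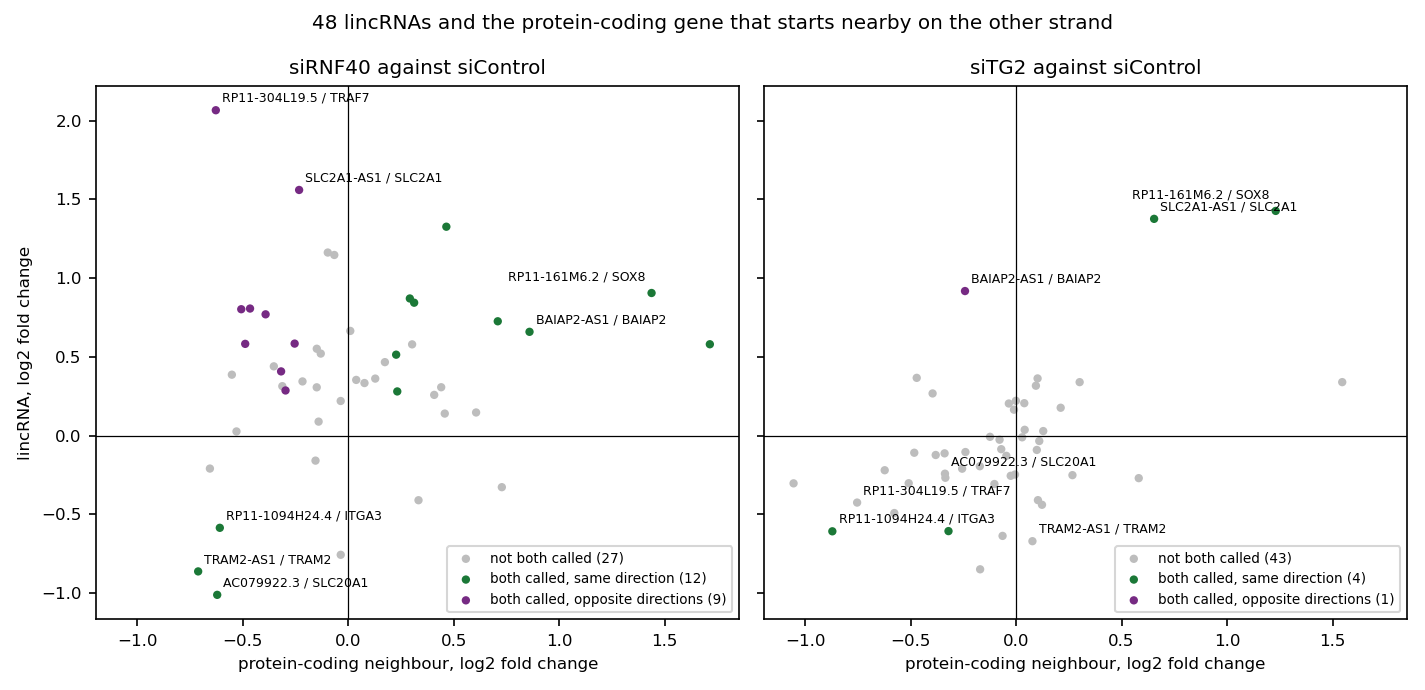
Log2 fold change of 48 lincRNAs (vertical axis) against that of the protein-coding gene that starts at most 2000 bases away on the other strand (horizontal axis), in siRNF40 and siTG2 against siControl. Green points are pairs called in the same direction (12 in siRNF40, 4 in siTG2), purple points pairs called in opposite directions (9 and 1), and the lower right quadrant holds no pair called in both genes.

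The 7-base word GTCTTCA occurred in the transcripts of 46 of the 192 members with a GENCODE 29 entry. This word was searched because, in these same libraries, protein-coding genes that hold it had been called lower in siRNF40 more often than others. Of the 46, 9 were called lower (19.6%) and 11 higher (23.9%) in siRNF40, with a median of 0.18. Of the 146 without it, 17 were lower (11.6%) and 59 higher (40.4%), with a median of 0.26. Members with the word were longer, with a median exonic length of 5346 bases against 2784, and they were not matched for length. The word GCGCCCT, picked in the same way for siTG2, occurred in 15 members, of which 3 were called higher and 1 lower in siTG2, beside 16 and 33 of the 177 without it. The windows show the word in capitals in members that rose in siRNF40, LINC00152, MIR4435-1HG and SLC2A1-AS1, and in 1 that fell, AC009299.3. The windows of LINC00152 and MIR4435-1HG, which share part of their sequence, are identical. This choice of windows does not reflect the counts of 11 higher and 9 lower.
LINC00152: gcccgtgcctGTCTTCAgatcttcaca
MIR4435-1HG: gcccgtgcctGTCTTCAgatcttcaca
SLC2A1-AS1: gggcctcaggGTCTTCAtgtataaaag
AC009299.3: tttgttagatGTCTTCAcatcctggtc

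Of the 192 members with a GENCODE 29 entry, the 154 with 2 or more exons had 58 higher and 20 lower calls in siRNF40 and 19 and 28 in siTG2. The 38 with a single exon had 12 and 6 in siRNF40 (31.6% and 15.8%), and none higher and 6 lower in siTG2. Over all members 34.2% were called higher and 15.6% lower in siRNF40, and 10.1% and 16.5% in siTG2. Across the 237 members, which share libraries and annotation, Spearman's rho between span and log2 fold change was -0.0123 in siRNF40 and 0.216 in siTG2. By level, 10 of the 19 members at 1000 or more were called higher in siRNF40 and 2 lower. At means of 100 to 200, where counting error is larger, these were 24 and 14 of 106. The median log2 fold changes of these 2 classes were close, 0.19 and 0.18, and a call is reached more easily at a high level. Of 22 genes for the nuclear exosome and its adaptors, which degrade many such RNAs, 7 rose and 7 fell in siRNF40, where 27.0% of protein-coding genes at a mean of at least 100 were called higher and 31.7% lower. In siTG2 1 rose and 7 fell, or 1 and 3 with equal totals, beside 14.5% and 26.6% of those genes. EXOSC5 (1.11, adjusted p = 6.8e-06) rose in siRNF40, and RBM7 (-0.74, adjusted p = 1.5e-05) and ZCCHC8 (-0.55, adjusted p = 4.8e-06), adaptors of the exosome, fell. Of 14 Integrator genes, whose complex ends the transcription of many noncoding RNAs, 5 rose and 4 fell in siRNF40, beside the same 27.0% and 31.7%. In siTG2 1 rose and 4 fell, or 3 and 1 with equal totals, beside 14.5% and 26.6% in the main fit. The GC box GGGCGG, searched on both strands, was found in 56 of the 103 member promoters (54.4%) and in 45.0% of all promoters.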

How the data were processed

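Per the labels' protocols, total RNA was extracted 48 h after siRNA transfection and polyadenylated RNA was made into libraries. Per the submitters' processing notes, Trim Galore 0.4.1, STAR 2.7.0, HTSeq 0.12.4 and DESeq2 were used, and hg19 and hg38 are named. Whether counting used strand is not given in the sources used here. The deposited table holds a signal, the authors' counts per gene divided by a size factor for each library, and all values (100%) were within 0.001 reads of whole reads. The authors also deposited, for each knockdown against siControl, DESeq2's log2 fold changes, a test score (the Wald statistic) and p-values.

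Log2 of the deposited value plus 1 was tested with limma 3.58.1 with an intensity trend in R 4.3.3, over all 9 libraries in 1 fit with 3 group means. Genes with a mean of at least 10 were tested, 17663 of 63677, two-sided, and the threshold for a call was a Benjamini-Hochberg adjusted p of 0.05. Fold changes are on the log2(value + 1) scale, and the adjusted p-values, also in parentheses without a tool's name, are limma's. Levels are given as deposited, and each SE comes from limma's moderated variance. The alternatives were pseudocounts of 10 and 0.5, other filters, equal totals, quantile normalisation, the 6 libraries of a comparison, a replicate block, edgeR 4.0.16 and DESeq2 1.42.0 on the recovered whole reads, each library left out, and other rules of membership.

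The members and gene lists were chosen with earlier results of these data known. Named are the 10 members of highest mean, and in each knockdown the 8 called members with the largest rise and the 8 with the largest fall among those with no overlap with siControl. Also named are the 5 highest and 5 lowest of those called in the same direction in both, the 5 with the widest difference between knockdowns among those called in opposite directions, every member of a list, and divergent neighbours of these. Not all neighbours are described above. IRX5 beside CRNDE and FAM83H beside FAM83H-AS1 were called higher in siRNF40, and FBXW7 beside MIR4453 lower. C11orf30 beside RP11-111M22.3 and WDR81 beside MIR22HG were not called there. In siTG2 none of these neighbours was called. RN7SL2, the antisense row of LINC-PINT, and members listed for their GENCODE 29 class or their nearness to the threshold were chosen after their values were seen. Deposited coordinates are hg19, and GENCODE 29 and RefSeq sequences (GRCh38.p14) were joined by gene ID or symbol, with Python 3.11.15. RefSeq promoters were found for 103 members. The fit was tested on simulated data. It missed the first criterion set for the share of changed genes recovered over all levels, and the criterion was then limited to genes at the level of the members, where it was met. The lists of paraspeckle proteins and of NORAD's protein partners are not reported here.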

Additional observations from a re-analysis of the deposited data

How the results depend on the processing

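Of 118 named calls, 98 kept direction and threshold under every alternative. The median log2 fold change of the members in siRNF40 against siControl was 0.150 with equal totals, 0.151 with quantile normalisation, 0.141 for lincRNAs with a mean of at least 50, 0.113 with membership by the siControl mean, and 0.165 to 0.209 with 1 library left out. In siTG2 it was 0.0383 with equal totals, opposite in sign to the main value, as this scaling moves the median of all genes by 0.142. It was -0.171 with quantile normalisation, -0.0700 with edgeR, -0.0300 and -0.166 for means of at least 50 and 200, and -0.104 to -0.0672 with 1 library left out. Between the knockdowns it was 0.0872 with equal totals, 0.339 with quantile normalisation, 0.165 and 0.307 for means of at least 50 and 200, and 0.292 for the 134 members that overlap no other gene. Those 134 had 66 calls in siRNF40, 38 in siTG2 and 78 between the knockdowns, and the lincRNAs with a mean of at least 200 had 81 in the latter. The counts follow from fewer members, and the cause of the other shifts was not tested. The difference between siRNF40 and siTG2 turned with quantile normalisation in LINC00657 (-0.0884, adjusted p = 0.25) and NEAT1 (-0.0677, adjusted p = 0.45), neither past the threshold.

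With the replicate number as a block, 115 members were called in siRNF40, 59 in siTG2 and 130 between the knockdowns. Same-numbered libraries of different groups had deviations from the group means that correlated at -0.0754 to 0.0813, and 2 of 9 libraries correlated best with their own number, so the numbers were not taken to pair libraries. Leaving out 1 library gave 103 to 122, 47 to 67 and 118 to 133 calls. Members at means near 100 rest on about as many reads a library. At means of 100 to 200, 68 of 106 were not called in siRNF40, which does not show that they did not change.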
